A study of Mus musculus with 9 samples.

Results

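The neurexophilins are a small family of secreted glycoproteins, and all 4 mouse genes, Nxph1, Nxph2, Nxph3 and Nxph4, were followed across RNA-seq libraries of newborn cortex with and without the transcription factor Fezf2. They were found by gene symbol, as 4 of the 24624 genes in the table. Nxph3 was chosen on its own value in these data, its lower level in Fezf2-/- than in Fezf2+/+ cortex, and the other members came in by family name. Values of Nxph3 are therefore given as a description, without a test. The libraries came from P0 mouse cortex, 1 mouse per library, with RNA from a pair of hemispheres. There were 3 Fezf2+/+ libraries (bc201, bc202 and bc203), 4 Fezf2-/- libraries (bc204 to bc207) and 2 Fezf2-/-; Fezf2-EnR libraries (bc208 and bc209), which are called Fezf2-EnR libraries from here on. The Fezf2- allele has a PLAP reporter knocked into the Fezf2 gene. Fezf2-EnR is a BAC transgene in which Fezf2 regulatory DNA drives a fusion of the FEZF2 DNA-binding part with the engrailed repressor, so this protein is made where the BAC is active, on the null background. Litter m1 gave bc201, bc202, bc205 and bc206, litter m2 gave bc203 and bc209, and litter m3 gave bc204, bc207 and bc208.

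Neurexophilins resemble neuropeptide precursors in their layout, with a variable part that is cleaved off and a conserved cysteine-rich end, and Nxph1 and Nxph3 are known as tight ligands of the extracellular part of alpha-neurexins, the presynaptic adhesion molecules. Neuroligins, LRRTMs and cerebellins are other ligands of neurexins, and bind at a different place from the neurexophilins. In cortex, Nxph1 is known from inhibitory interneurons. Nxph3 is known from neurons of the deepest layer, where subplate cells remain, and Nxph4 from the same deep region. FEZF2 is needed for the identity of deep-layer neurons that project out of the cortex.

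The values are read counts per gene divided by a size factor of the library, and are called normalized counts here. Each library held between 18716575 and 25127623 reads, and 125 to 1732 of them fell on any one neurexophilin gene. In 2 libraries, bc204 and bc208, the read number is less certain because 1 read was worth so close to 1 normalized count. Fezf2 had 1232, 1010 and 979 normalized counts in Fezf2+/+, 223, 193, 242 and 209 in Fezf2-/-, and 907 and 1001 in Fezf2-EnR, where the table does not separate transgene from gene. Emx1 and Slc17a7, which mark cortical excitatory neurons, were present in every genotype, while Ttr, Folr1 and Kl, which mark choroid plexus, summed to at most 17.9 in any library. Y-linked genes were above 100 normalized counts in 2 of 3 Fezf2+/+, 4 of 4 Fezf2-/- and 0 of 2 Fezf2-EnR libraries, and Xist in 1, 0 and 2, so sex moved with genotype, and its part in the results was not tested. Fewer cells of a type and less RNA per cell cannot be told apart in bulk tissue.

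Nxph3 lost most of its expression without Fezf2, and the Fezf2-EnR transgene went with a level near that of wild type. The gene (ENSMUSG00000046719.7) lies on the minus strand of chromosome 11 (GRCm38, chr11:95509845-95514570, GENCODE M21) and has a single annotated transcript of 2 exons. It had 1188, 1160 and 1094 normalized counts in the Fezf2+/+ libraries, 184, 145, 195 and 184 in Fezf2-/-, and 991 and 1021 in Fezf2-EnR. Every Fezf2-/- library lay far below every other library, and both Fezf2-EnR libraries lay just below the lowest Fezf2+/+ library. The Fezf2-/- mean of 176.8 ± 21.9 (SD, n = 4) was 15.4% of the Fezf2+/+ mean of 1147 ± 48.3 (SD, n = 3), or 6.49-fold lower. On the log2(value + 1) scale the difference was -2.70 (standard error 0.10, 95% interval -2.92 to -2.48), and it stayed between -2.75 and -2.61 when any one library was left out. That placed Nxph3 6th among the falls of the 16197 genes tested, which is the value it was chosen by. The interval takes no account of that choice. Within litter m1, which holds both genotypes, the difference was -2.80. The 1 Fezf2+/+ library with Xist (bc201) had 1188 normalized counts, beside 1160 and 1094 in the others. The part of sex in the level of Nxph3 was not tested.

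In Fezf2-EnR, Nxph3 averaged 1006 ± 21.1 normalized counts (SD, n = 2), which is 87.6% of the Fezf2+/+ mean. The difference from Fezf2-/- was 2.51 on the log2 scale (standard error 0.11, 95% interval 2.26 to 2.76), and 2.42 within litter m3. The Fezf2-EnR libraries covered 92.2% (bc208) and 93.8% (bc209) of the log2 distance from the Fezf2-/- to the Fezf2+/+ mean. For Fezf2 itself the same quantity was 89.8% and 95.9%. The difference from Fezf2+/+ was -0.19 (standard error 0.12, 95% interval -0.46 to 0.08). This comparison and those with Fezf2-/- share libraries, so they are not independent of each other.

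Nxph4, the other deep-layer member, also fell without Fezf2, by less than Nxph3. The gene (ENSMUSG00000040258.6, chr10:127525473-127534559 in GRCm38, minus strand) has 1 annotated transcript of 2 exons. Normalized counts were 385, 483 and 410 in Fezf2+/+, 126, 163, 169 and 167 in Fezf2-/-, and 327 and 367 in Fezf2-EnR. All Fezf2-/- libraries were below all others, with no overlap, and both Fezf2-EnR libraries were below the lowest Fezf2+/+ library. The Fezf2-/- mean of 156.2 ± 20.6 (SD, n = 4) was 36.7% of the Fezf2+/+ mean of 426.0 ± 50.8 (SD, n = 3), or 2.73-fold lower. The log2 difference was -1.45 (standard error 0.13, 95% interval -1.73 to -1.16, limma adjusted p = 0.000265). An exact two-sided permutation test over the 35 splits of 3 and 4 libraries gave p = 0.029, the smallest it can give. In litter m1 alone the difference was -1.37.

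In Fezf2-EnR, Nxph4 averaged 346.8 ± 28.7 (SD, n = 2), 81.4% of the Fezf2+/+ mean, and rose by 1.15 against Fezf2-/- on the log2 scale (standard error 0.14, 95% interval 0.83 to 1.47, limma adjusted p = 0.0052). Without library bc209 the difference was 1.07 and no longer passed the test, with a single Fezf2-EnR library left (limma adjusted p = 0.1, and 8.65e-10 to 0.1 over all alternatives, which include edgeR and DESeq2). Within litter m3 it was 1.17. The log2 distance covered was 74.0% in bc208 and 85.6% in bc209. Against Fezf2+/+ the difference was -0.29 (standard error 0.15, 95% interval -0.63 to 0.04, limma adjusted p = 0.318), so the fitted level was 0.817 times that of wild type, with an interval of 0.647 to 1.03.

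**Figure D1:**
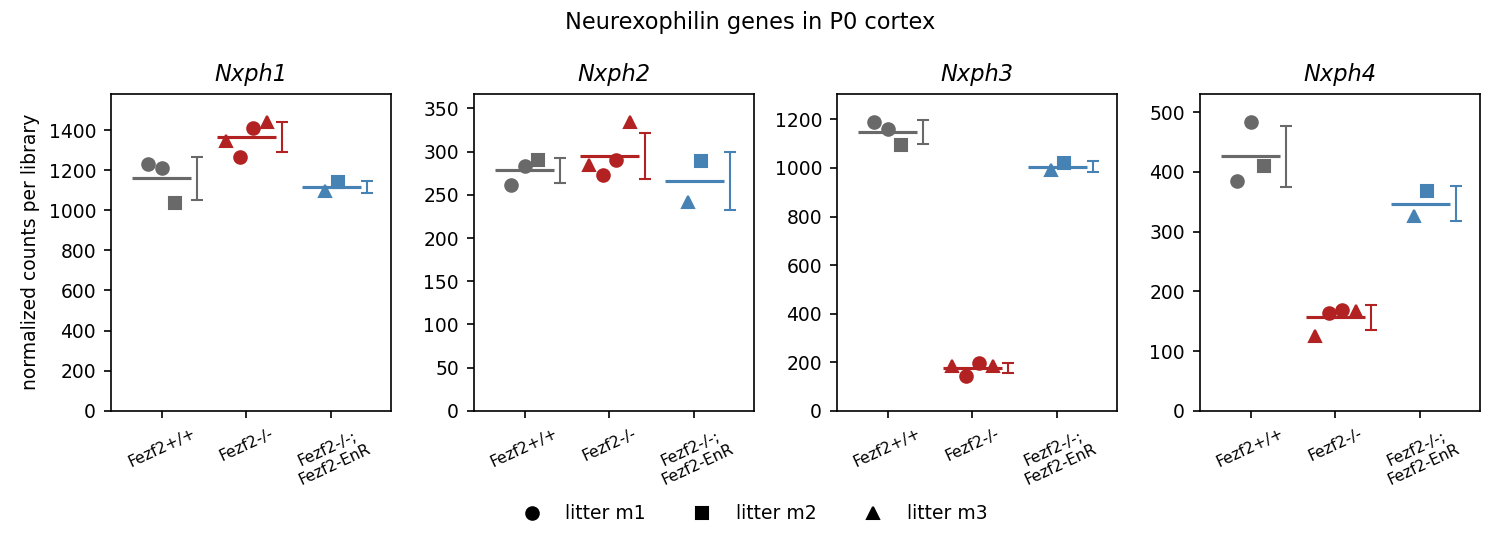
Normalized counts of the 4 neurexophilin genes (vertical axes, each starting at 0) in each library, grouped by genotype, with the litter shown by the symbol, the group mean as a line and the SD as a bar beside it. The Fezf2-/- libraries sit at 145 to 195 for Nxph3 and at 126 to 169 for Nxph4, below all other libraries, whereas Nxph1 lies between 1036 and 1439 and Nxph2 between 242 and 334 over all libraries.

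Nxph1, the member known from interneurons, did not fall. The gene (ENSMUSG00000046178.3, chr6:8948431-9249032 in GRCm38, plus strand) has 3 annotated transcripts. Its normalized counts were 1231, 1210 and 1036 in Fezf2+/+, 1345, 1267, 1413 and 1439 in Fezf2-/-, and 1097 and 1140 in Fezf2-EnR. The Fezf2-/- libraries were all above the other 5, by a small margin. The means were 1159 ± 107 (SD, n = 3), 1366 ± 76.7 (SD, n = 4) and 1118 ± 30.0 (SD, n = 2). The log2 difference between Fezf2-/- and Fezf2+/+ was 0.24 (standard error 0.08, 95% interval 0.07 to 0.41) and did not pass the test over all genes (limma adjusted p = 0.268, and exact two-sided permutation test, p = 0.057). The difference between Fezf2-EnR and Fezf2-/- was -0.29 (95% interval -0.48 to -0.10, limma adjusted p = 0.163), and that between Fezf2-EnR and Fezf2+/+ was -0.05 (95% interval -0.25 to 0.15, limma adjusted p = 0.808). Within litters the differences were 0.13 in m1 (Fezf2-/- against Fezf2+/+), -0.34 in m3 (Fezf2-EnR against Fezf2-/-) and 0.14 in m2 (Fezf2-EnR against Fezf2+/+).

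Nxph2 passed the test in none of the 3 comparisons. The gene (ENSMUSG00000069132.3, chr2:23321246-23401973 in GRCm38, plus strand) has 1 annotated transcript. It had 262, 283 and 290 normalized counts in Fezf2+/+, 284, 274, 290 and 334 in Fezf2-/-, and 242 and 290 in Fezf2-EnR, and the groups overlapped in every comparison. The log2 difference was 0.08 between Fezf2-/- and Fezf2+/+ (standard error 0.10, 95% interval -0.14 to 0.31, limma adjusted p = 0.814, and exact two-sided permutation test, p = 0.429). It was -0.15 between Fezf2-EnR and Fezf2-/- (95% interval -0.41 to 0.10, limma adjusted p = 0.52). Between Fezf2-EnR and Fezf2+/+ it was -0.07 (95% interval -0.34 to 0.20, limma adjusted p = 0.782). A fall as large as that of Nxph4 lies outside each of these intervals, and differences up to their ends remain possible.

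**Figure D2:**
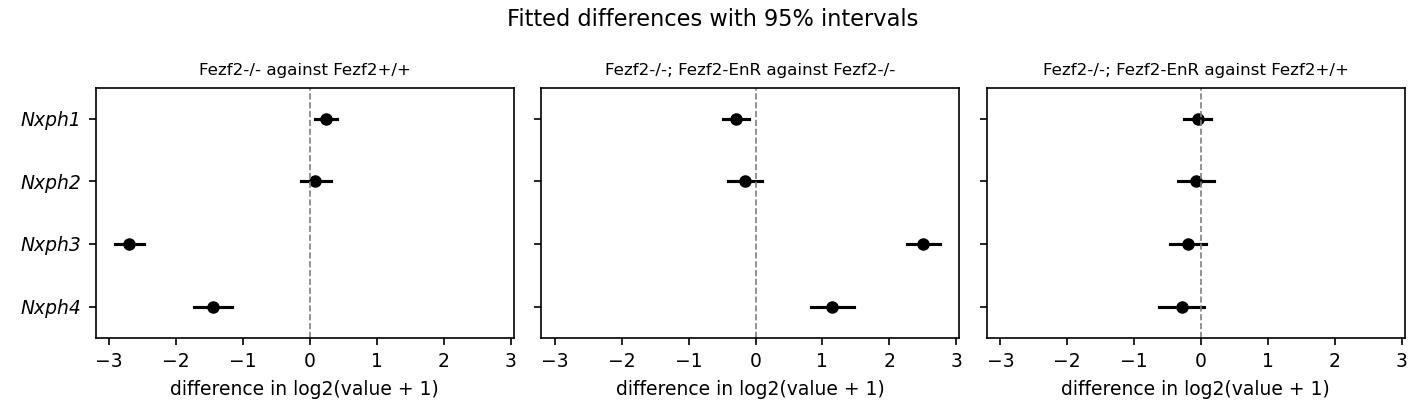
Differences in log2(value + 1) of each neurexophilin gene (horizontal axis) in the 3 comparisons, as dots with 95% intervals from the fit across all genes. The intervals of Nxph3 take no account of its having been chosen by its fall. Nxph3 (-2.70) and Nxph4 (-1.45) lie to the left of 0 in the Fezf2-/- against Fezf2+/+ panel and to the right in the Fezf2-EnR against Fezf2-/- panel (2.51 and 1.15), and the differences lie between -0.29 (Nxph4) and -0.05 (Nxph1) in the Fezf2-EnR against Fezf2+/+ panel.

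These counts were set against all genes tested. In Fezf2-/- against Fezf2+/+, 0.858% of the 16197 genes passed limma's test (139 genes) and 0.346% passed it and were lower (56 genes), while Nxph4 was the 1 member of the 3 tested that passed. Apart from Nxph3, whose lack of overlap followed from how it was chosen, the libraries did not overlap for Nxph1 and Nxph4, against 13.0% of all genes. In Fezf2-EnR against Fezf2-/-, 0.766% of genes passed (124), 0.333% passed and were higher (54), and the libraries did not overlap for 24.6%, and of the members other than Nxph3 the libraries did not overlap for Nxph1 and Nxph4, of which Nxph4 passed. In Fezf2-EnR against Fezf2+/+, 0.117% of genes passed (19), and neither Nxph1, Nxph2 nor Nxph4 was among them. Nxph4 lay below wild type without overlap there, and the libraries did not overlap, in either direction, for 34.6% of all genes. Of the 56 genes called lower in Fezf2-/-, 32 were called higher again in Fezf2-EnR. Shares of all genes under other rules serve the gene lists given further on, in the order Fezf2-/- against Fezf2+/+, Fezf2-EnR against Fezf2-/- and Fezf2-EnR against Fezf2+/+. An unadjusted p under 0.05 in limma was found for 10.8%, 16.9% and 19.3% of the genes. On reads of all 9 libraries edgeR called 0.877%, 0.704% and 0.0926% and DESeq2 1.95%, 3.08% and 5.58%. On the 7 libraries with recovered reads edgeR called 0.803%, 4.04% and 1.3% and DESeq2 2.03%, 8.64% and 9.16%.

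Read counts can also be compared between members once divided by length. Per kilobase of annotated exon, Nxph3 was the most abundant neurexophilin in 3 of 3 Fezf2+/+ libraries, with 547 ± 23.0 normalized counts per kb (SD, n = 3). Nxph4 followed with 254 ± 30.3 and Nxph1 with 244 ± 22.5, which differed by less than their SDs, and Nxph2 was lowest with 108 ± 5.64. In Fezf2-/- the order was different, which includes the fall of Nxph3, the value it was chosen by. Nxph1 was first in 4 of 4 libraries with 287 ± 16.1 per kb (SD, n = 4), Nxph2 came next with 115 ± 10.3, and Nxph4 (93.3 ± 12.3) and Nxph3 (84.2 ± 10.4) were within their SDs of each other. In both Fezf2-EnR libraries Nxph3 was again first, with 479 ± 10.1 per kb (SD, n = 2), followed by Nxph1 (235 ± 6.32), Nxph4 (207 ± 17.1) and Nxph2 (103 ± 13.1).

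Summed per kb, the family had 1150 ± 54.7 normalized counts in Fezf2+/+, 579 ± 38.0 in Fezf2-/- and 1020 ± 46.6 in Fezf2-EnR. Nxph3 made up 47.4%, 14.5% and 46.8% of these sums, Nxph4 22.0%, 16.1% and 20.2%, Nxph1 21.1%, 49.6% and 23.0%, and Nxph2 9.38%, 19.8% and (range in Fezf2-EnR) 9.46% to 10.6%. Nxph1 thus took a larger share in Fezf2-/- while its own level per kb was 244 in Fezf2+/+ and 287 in Fezf2-/-. All these sums and shares contain Nxph3, which was chosen for its fall, so they are a description only. The length taken for Nxph1 mattered: with its longest transcript (2815 bases) in place of all annotated exons (4753 bases), its shares were 31.1%, 62.4% and 33.5%, and it stood above Nxph4 in all Fezf2+/+ libraries. The position of Nxph3 as first in Fezf2+/+ and Fezf2-EnR did not change.

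**Figure D3:**
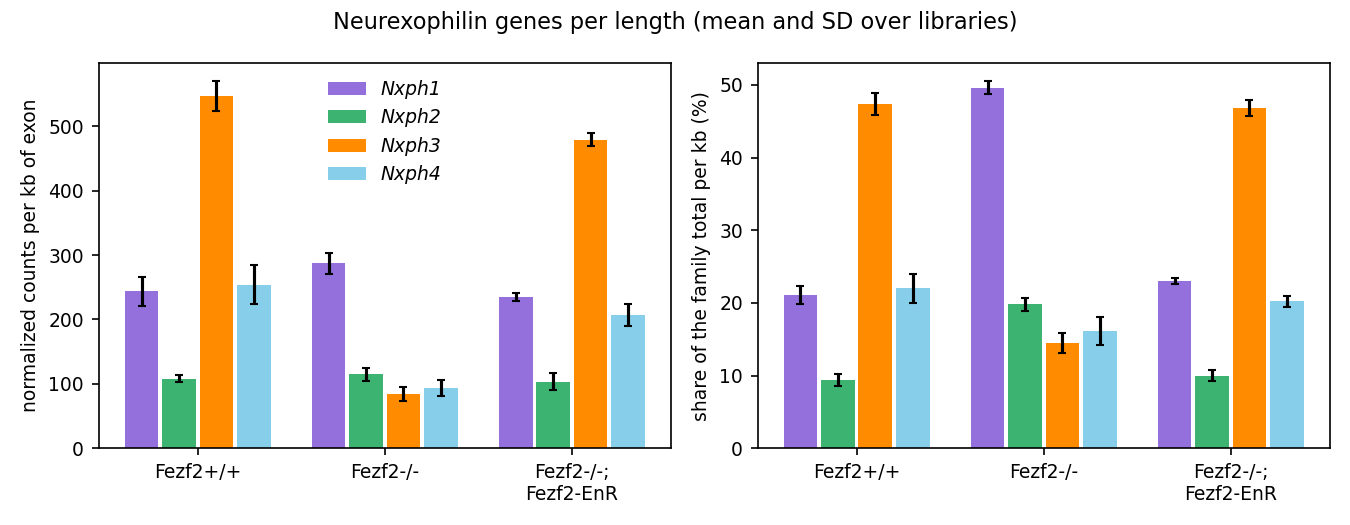
Normalized counts per kb of annotated exon (left) and share of the family sum in percent (right) for each neurexophilin gene by genotype, as means over libraries with SD bars (n = 3, 4 and 2). Nxph3 is the tallest bar in Fezf2+/+ (547 per kb) and Fezf2-EnR (479), and Nxph1 is the tallest in Fezf2-/- (287).

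Nrxn2 and Nrxn3 encode neurexins, of which the alpha forms are the receptors of neurexophilins, and neither passed limma's test in any of the 3 comparisons. Nrxn3 had 1428, 1362 and 1227 normalized counts in Fezf2+/+, 1983, 1694, 1648 and 2358 in Fezf2-/-, and 1781 and 1368 in Fezf2-EnR. Its Fezf2-/- libraries lay above all Fezf2+/+ libraries, with a log2 difference of 0.51 (standard error 0.13, limma adjusted p = 0.147), beside a median of 0.00 over all genes tested. DESeq2 called Nrxn3 in this comparison on reads of 7 and of all 9 libraries, and edgeR did not on either. Nrxn2 averaged 10580 ± 125 in Fezf2+/+ and 10640 ± 784 in Fezf2-/-, a log2 difference of 0.00 (standard error 0.08, limma adjusted p = 0.988). In the comparisons with Fezf2-EnR, neither gene had an unadjusted p under 0.05 or was called by edgeR or DESeq2.

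Of 22 genes that encode other ligands of neurexins, 19 were tested. In Fezf2-/- against Fezf2+/+ 1 passed, beside 0.858% of all genes, and 0 passed in each comparison with Fezf2-EnR. The median log2 difference of the 19 genes in Fezf2-/- was 0.14. Lrrtm4, a leucine-rich repeat protein of excitatory postsynaptic sites, rose from 429.9 ± 36.0 to 652.8 ± 78.6 normalized counts, a log2 difference of 0.60 (standard error 0.11, limma adjusted p = 0.028). Its libraries had 471, 408 and 410 in Fezf2+/+, 697, 605, 570 and 739 in Fezf2-/-, and 508 and 444 in Fezf2-EnR, with no overlap between the first pair of groups. The call was lost in 6 of the 9 fits that left out 1 library (highest limma adjusted p = 0.17) and kept without bc206, bc208 or bc209. C1ql3 and Cbln2, secreted complement C1q-like proteins, differed by 0.77 (limma adjusted p = 0.153) and 0.71 (limma adjusted p = 0.32). The neuroligins Nlgn1, Nlgn2 and Nlgn3 differed by 0.02, 0.08 and 0.16. Unadjusted p lay under 0.05 for 6, 7 and 2 of the 19 ligands in Fezf2-/- against Fezf2+/+, Fezf2-EnR against Fezf2-/- and Fezf2-EnR against Fezf2+/+, beside 10.8%, 16.9% and 19.3% of all genes. On reads of all 9 libraries edgeR called 1, 0 and 0 of them and DESeq2 2, 2 and 0. On the 7 libraries with recovered reads edgeR called 0, 3 and 1 and DESeq2 5, 5 and 2. Of the intracellular partners of neurexins Cask, Apba1 and Apba2, 0 of 3 passed limma's test in any comparison, 0 had an unadjusted p under 0.05, and 0 were called by edgeR or DESeq2.

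Genes of inhibitory neurons were examined beside Nxph1. All 9 genes of GABAergic neurons, among them Gad1 and Gad2, which make GABA, had a positive log2 difference in Fezf2-/- against Fezf2+/+. The median was 0.56, and the libraries did not overlap for 9 of 9, beside 13.0% of all genes. Their summed level was 7144 to 7300 normalized counts in Fezf2+/+, 9191 to 11480 in Fezf2-/- and 6936 to 9196 in Fezf2-EnR. With limma 0 of 9 passed, and 8 had an unadjusted p under 0.05, beside 10.8% of all genes. On all 9 libraries edgeR called 0 of them and DESeq2 6, beside 0.877% and 1.95% of all genes, and on 7 libraries they called 0 and 2. Gad1 differed by 0.71 (limma adjusted p = 0.149) and Dlx2, a transcription factor of interneuron precursors, by 0.41 (limma adjusted p = 0.0632). For 9 genes of interneurons from the medial ganglionic eminence the median was 0.31, and all 9 differences were positive. The libraries did not overlap for 4 of them, beside 13.0% of all genes. With limma 0 of 9 passed, and 4 had an unadjusted p under 0.05, beside 10.8% of all genes. On all 9 libraries edgeR and DESeq2 called 0 and 1, beside 0.877% and 1.95% of all genes, and on 7 they called 1 and 3. Sst, which encodes somatostatin, differed by 0.84 (limma adjusted p = 0.169), and Lhx6, a defining transcription factor of these cells, by 0.09 (limma adjusted p = 0.687). With litter as a block, Npy of this list passed in Fezf2-/- against Fezf2+/+ (limma adjusted p = 0.015). Gad1 passed in Fezf2-EnR against Fezf2-/- in that fit (limma adjusted p = 0.0262). The medians of the 2 lists were -0.21 and -0.16 in Fezf2-EnR against Fezf2-/-, and 0.07 and -0.03 against Fezf2+/+, where 0 genes passed limma. Against Fezf2+/+ the libraries did not overlap for 3 genes of each list, beside 34.6% of all genes. The difference of Nxph1 in Fezf2-/- against Fezf2+/+, 0.24, had the sign of both medians in that comparison and was below them. The part of interneuron number in its level was not tested.

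**Figure D4:**
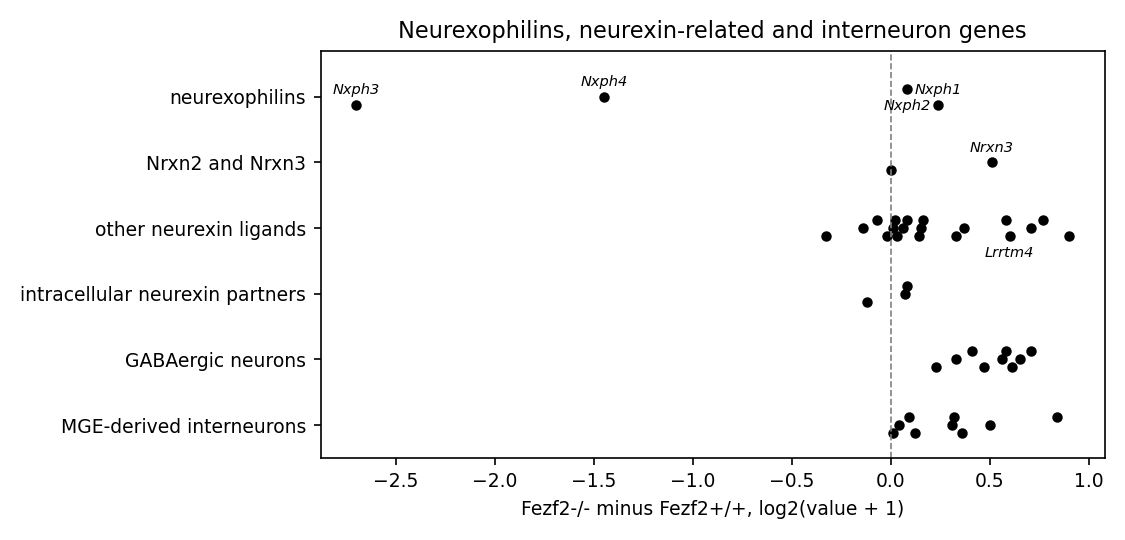
Log2 differences between Fezf2-/- and Fezf2+/+ (horizontal axis), 1 dot per gene, for the neurexophilins, the neurexin genes Nrxn2 and Nrxn3, other neurexin ligands, intracellular neurexin partners and 2 lists of interneuron genes (vertical position within a row only separates dots). Nxph3 and Nxph4 lie at -2.70 and -1.45, while the other neurexin ligands start at -0.33 and all 9 genes of GABAergic neurons lie right of 0.

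Genes of the deep layers were counted beside Nxph3 and Nxph4. Of 10 genes of corticothalamic layer 6 neurons, 4 passed limma and were lower in Fezf2-/-: Tle4, Zfpm2, Hs3st4 and Syt6. The same 4 passed and were higher in Fezf2-EnR against Fezf2-/-. Of all genes tested, 0.858% passed in Fezf2-/- against Fezf2+/+, and 0.346% passed and were lower. In Fezf2-EnR against Fezf2-/-, 0.333% passed and were higher. The median log2 difference of the 10 was -0.98 and 0.86 in these comparisons. All 10 were negative in Fezf2-/- against Fezf2+/+ and positive in Fezf2-EnR against Fezf2-/-. The libraries did not overlap for 8 and 7 of them, beside 13.0% and 24.6% of all genes. An unadjusted p under 0.05 was found for 8 and 9, beside 10.8% and 16.9%. On all 9 libraries edgeR called 4 and 4 (0.877% and 0.704% of all genes) and DESeq2 6 and 4 (1.95% and 3.08%). Foxp2 differed by -1.44 in Fezf2-/- and did not pass (limma adjusted p = 0.123). Hs3st4, a heparan sulfate sulfotransferase, averaged 2307 normalized counts in Fezf2+/+ and 585.8 in Fezf2-/- (log2 difference -1.98, standard error 0.07). Of 7 genes of subplate and layer 6b, Cplx3 and Ctgf passed limma and were lower, and Nr4a2 passed and was higher (median 0.08). The difference was negative for 3 of the 7 and positive for 4, so the 2 neurexophilins moved like part of that list. Cplx3, a complexin, went from 98.6 ± 17.9 to 12.1 ± 4.23, and Ctgf, which encodes a matrix-associated growth factor, from 378.9 ± 38.0 to 144.6 ± 26.7. Nr4a2, a nuclear receptor, averaged 2243 ± 131 and 3797 ± 671 (log2 difference 0.75, limma adjusted p = 0.0248). Of 9 genes of subcerebral layer 5 neurons, 5 passed limma and were lower in Fezf2-/- (Ldb2, Bhlhe22, Ephb1, Tcerg1l and Adcyap1, list median -0.71). All of these but Bhlhe22 passed and were higher in Fezf2-EnR against Fezf2-/-. All 9 genes were negative in the first of these comparisons and positive in the second. The libraries did not overlap for 8 of 9 in each, and 8 and 9 had an unadjusted p under 0.05. With litter as a block, the calls of Ldb2, Bhlhe22 and Nr4a2 in Fezf2-/- were lost (limma adjusted p = 0.0911, 0.0856 and 0.0599). So were those of Syt6 and Ldb2 in Fezf2-EnR against Fezf2-/- (limma adjusted p = 0.0819 and 0.052). That fit gained a call of Sema3e, of the subcerebral list, in Fezf2-/- (limma adjusted p = 0.00541) and in Fezf2-EnR against Fezf2-/- (limma adjusted p = 0.0212). When 1 library was left out, the calls of Ldb2 and Bhlhe22 were lost in 7 of the 9 fits and that of Nr4a2 in 4, whereas the falls of Tle4, Zfpm2, Hs3st4, Syt6, Cplx3, Ctgf, Ephb1, Tcerg1l and Adcyap1 kept theirs in every fit. Among the rises in Fezf2-EnR, that of Syt6 was lost in 5 fits, Ldb2 in 6, Adcyap1 in 3, and Cplx3 and Ctgf in 1. In Fezf2-EnR against Fezf2+/+, 0 genes of these 3 lists passed limma, and 1, 0 and 0 had an unadjusted p under 0.05. DESeq2 on 7 libraries called 3 of the corticothalamic genes there, and edgeR and DESeq2 on all 9 called 0.

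Markers of other cells and tissues that the dissection could hold were counted as well. For endothelium, microglia and red blood cells 0 of 3 genes each passed limma in Fezf2-/- against Fezf2+/+ and 0 had an unadjusted p under 0.05, with 0 called by edgeR or DESeq2. In the comparisons with Fezf2-EnR 0 of these genes passed limma, edgeR or DESeq2 either, but the 3 hemoglobin genes had an unadjusted p under 0.05 and no overlap in both, with median log2 differences of -0.58 against Fezf2-/- and -0.57 against Fezf2+/+. Their summed level was 5189 to 7641 in Fezf2+/+, 4503 to 8093 in Fezf2-/- and 3861 to 4024 in Fezf2-EnR. Unadjusted p also lay under 0.05 for 1 endothelial gene in each of these comparisons and for 1 microglial gene against Fezf2+/+. The libraries did not overlap for 3 of 3 microglial and 1 of 3 endothelial genes against Fezf2+/+, and for 1 of each against Fezf2-/-. Of all genes, 16.9% had an unadjusted p under 0.05 in Fezf2-EnR against Fezf2-/- and 19.3% against Fezf2+/+. The libraries did not overlap for 24.6% and 34.6% of all genes. Of 4 striatal genes 0 passed limma in Fezf2-/- against Fezf2+/+, 1 had an unadjusted p under 0.05, and 1 was called on 7 libraries by edgeR and by DESeq2. Their summed level was 965 to 1218 normalized counts in Fezf2+/+ and 385 to 1538 in Fezf2-/-, with the highest sum in bc204. Ppp1r1b, most of that sum in Fezf2+/+, averaged 959.6 ± 115 there and 488.9 ± 255 in Fezf2-/- (log2 difference -1.10, standard error 0.30). Drd2, Adora2a and Isl1 had positive differences (0.92, 0.64 and 0.41, standard errors 0.69, 0.55 and 1.19). Of 5 meningeal genes Lum fell, of 2 thalamic genes Slc17a6 rose, of 8 upper-layer genes Mdga1 rose and of 6 genes of cortical excitatory neurons Emx1 fell. These were calls in Fezf2-/- against Fezf2+/+, where 0.858% of all genes passed. Slc17a6 averaged 711.1 ± 63.2 in Fezf2+/+ and 1076 ± 148 in Fezf2-/-, and the thalamic gene Tcf7l2 47.4 and 55.1. Gbx2, also on the thalamic list, averaged 1.41 over all libraries and was not tested. With 1 library left out, the call was lost in 3 of 9 fits for Lum, 6 for Mdga1 and 7 for Slc17a6 and Emx1, and with litter as a block it was lost for Mdga1 (limma adjusted p = 0.0864) and Slc17a6 (limma adjusted p = 0.0619). Their part in the levels of the neurexophilins was not tested.

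The genes whose pattern was most like that of Nxph3 were sought among 12962 other genes with a mean of at least 50, by the root mean square difference of log2 levels relative to the Fezf2+/+ mean over the 9 libraries. Ngfr, which encodes the p75 neurotrophin receptor, was nearest (0.23), followed by Fezf2 itself (0.28), Tcerg1l (0.36), Cplx3 (0.46), Ermn (0.50), Hs3st4 (0.50), Trhr (0.62), Clic5 (0.64), Zfpm2 (0.76) and Syt6 (0.80). Ngfr had 356.0 ± 29.8 normalized counts in Fezf2+/+, 58.5 ± 10.1 in Fezf2-/- and 357.0 ± 85.3 in Fezf2-EnR. Trhr encodes the receptor for thyrotropin-releasing hormone, and had 101.5 ± 21.0, 23.3 ± 11.4 and 112.0 ± 64.1. Of the 10 genes, 5 are on the corticothalamic, subplate or subcerebral lists. That count is a description only, because Nxph3 was chosen for its fall and the lists were chosen with earlier results known. Nxph4 was nearest to Ctgf (0.23), Arhgap25 (0.23), Nfe2l3 (0.24), Zfpm2 (0.29) and Oma1 (0.29), and Zfpm2 is the gene named for both. Arhgap25, a GTPase-activating protein, had 83.7 ± 3.74, 35.3 ± 1.61 and 71.4 ± 15.9, and Nfe2l3, a transcription factor, 967.8 ± 49.2, 429.7 ± 47.8 and 926.6 ± 153. With a minimum mean of 10, 8 of the 10 genes for Nxph3 and 4 of the 5 for Nxph4 were named again.

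**Figure D5:**
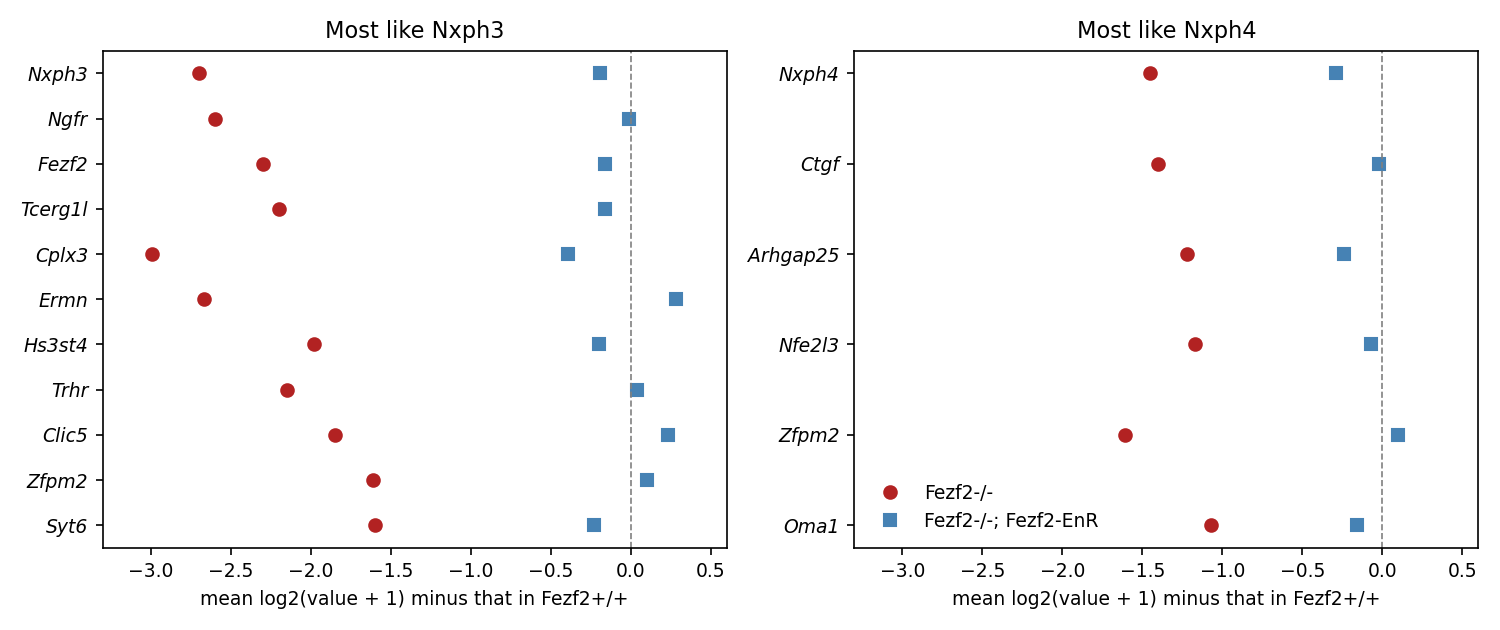
Mean log2(value + 1) in Fezf2-/- (circles) and Fezf2-EnR (squares) minus that in Fezf2+/+ (horizontal axis) for Nxph3 and its 10 most like genes and for Nxph4 and its 5 most like genes, nearest at the top. The circles lie between -2.99 (Cplx3) and -1.60 (Syt6) in the left panel and between -1.61 (Zfpm2) and -1.07 (Oma1) in the right, and the squares lie within 0.39 of 0 in both.

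The longest stretch shared by transcripts of any pair of members was 24 bases, for Nxph3 and Nxph4, and no exon of a member overlaps an exon of another gene in GENCODE M21. Gm35736 lies within the span of Nxph1. The coefficient of variation of Nxph3 was 4.21% in Fezf2+/+, 12.4% in Fezf2-/- and 2.1% in Fezf2-EnR, where counting alone gives 2.93%, 7.53% and 3.22%.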

How the data were processed

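RNA-seq of P0 mouse cortex was analysed in 9 libraries, grouped by genotype from the labels. The authors sequenced polyA RNA as paired ends and deposited a normalized signal, read counts divided by a DESeq size factor, for 24624 genes. Labels and methods name different sequencers. The methods give 4 Fezf2+/+ mice, whereas the legend of the authors' RNA-seq figure gives 3, the number analysed here. The submitters' processing notes name Bowtie, STAR, DESeq and mm10. The counting tool, annotation release and use of strand are not given in the sources used here. GENCODE M21 (GRCm38) supplied positions and lengths, and 24595 identifiers matched it without version.

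log2(value + 1) was tested with limma 3.58.1 (trend, R 4.3.3) over 16197 genes with a mean of at least 10, with all 9 libraries in 1 fit and 1 coefficient per genotype. The threshold was 0.05 after Benjamini-Hochberg adjustment. Fold changes of low genes are understated on this scale. The exact permutation test gives the share of 35 splits with at least as large an absolute difference in means. Whole reads were recovered in 7 libraries (100.0% of values within 0.1 of a whole read) and tested with edgeR 4.0.16 and DESeq2 1.42.0. Fits on reads of all 9 were added after seeing the data. The test was tested on simulated data with noise drawn independently for each library. Litter, sex and dissection were not simulated, so it does not show how the test behaves with them. Other alternatives were pseudocounts, filters, scalings, litter as a block, litter m1 alone and each library left out. Members and gene lists were chosen with earlier results of these data known. Genes named were the members, Fezf2, called genes of the lists, and the most like genes. Uncalled list genes given as examples were chosen after their values were seen. Results of some listed genes are not reported here.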

Additional observations from a re-analysis of the deposited data

Results flagged for a closer look

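In Fezf2-/-, library bc204 stood apart for 2 of 18 pairs of gene and group examined for an outlying library, where chance gives about 1 in 20. Nxph4 had 125.54 normalized counts in bc204 and 163.44 to 168.89 in the other Fezf2-/- libraries. Zfpm2, which is among the named like genes of both Nxph3 and Nxph4, had 147.63 in bc204 and 180.24 to 185.57 in the others. In each case the gap to the nearest library was a larger part of the group's range (0.874 and 0.86) than Dixon's 95% critical value for 4 samples. Among Fezf2-/- libraries, bc204 also had the highest striatal sum (1537.6, beside 384.57 to 568.79). Its corticothalamic sum was the lowest (19446, beside 22713 to 23750). Its meningeal and microglial sums lay between those of the others. The part of tissue make-up was not tested.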

How the results depend on the processing

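Under 23 other settings, 197 of 201 values of the folds of Nxph1, Nxph2 and Nxph4 kept their direction and their side of the threshold, and 67 of 67 values of Nxph3, which has no test, kept their sign. Nxph4 in Fezf2-EnR against Fezf2-/- fell short without bc209 (1.07, limma adjusted p = 0.1), and lay between 1.05 and 1.24 with any 1 library left out. Nxph2 in Fezf2-EnR against Fezf2+/+ turned to 0.06 without bc208 and on the 7 libraries with edgeR and DESeq2, and lay between -0.20 and 0.06 with any 1 library left out. In the 7-library fits Fezf2-EnR has 1 library, assumed to vary like the others. Counts of called genes depended on the fit. In Fezf2-/- against Fezf2+/+ (139), they were 221 with only these groups, 233 in litter m1, 322 and 315 with DESeq2 on 7 and 9 libraries, and 66 to 217 with 1 library left out (over 1.5 times away without bc201, bc202, bc203, bc205, bc206, bc208 or bc209). In Fezf2-EnR against Fezf2-/- (124), they were 67 with only these groups, 654 with edgeR on 7, 1101 and 450 with DESeq2 on 7 and 9, and 21 to 1088 with 1 library left out (bc202, bc205, bc206, bc208 and bc209). In Fezf2-EnR against Fezf2+/+ (19), they were 10 with a minimum mean of 50, 12 with only these groups, 32 with litter as a block, 210 with edgeR on 7, 966 and 641 with DESeq2 on 7 and 9, and 8 to 491 with 1 library left out (bc202, bc203, bc207, bc208 and bc209). The cause was not tested. Replicate numbers are not shared between genotypes, so litter was the only block, and it changed no call of Nxph1, Nxph2 or Nxph4. Groups of 2 to 4 libraries and 125 to 1732 reads per member limit what differences could be seen.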
